A study of Mus musculus with 8 samples.

Results

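Endogenous retroviruses of the ERVK class are relics of betaretrovirus-like germline infections, and in the mouse they include families that still move. A full copy has an internal sequence with the viral genes, flanked on each side by a long terminal repeat (LTR) that holds the promoter, enhancer and polyadenylation signal. Recombination between both LTRs of a copy removes the internal part and leaves a solo LTR, and such solo LTRs can act as promoters or enhancers of nearby genes. In mouse embryonic stem cells, ERVK copies are kept silent largely by KRAB zinc finger proteins that recruit TRIM28 and the histone methyltransferase SETDB1.

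The ERVK LTR sequences other than those of intracisternal A particles (IAP) were taken as the rows annotated ERVK whose name is neither an internal sequence nor an IAP element, with a mean count of at least 10. This gave 197 subfamilies of 1097 transposable element rows and 18694 rows in all. Of the 278 ERVK rows, 217 were LTR rows outside the IAP group, and 20 of these fell under the minimum. The other ERVK rows were 36 internal sequences, 16 IAP LTR rows and 9 IAP internal rows.

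The RNA came from mouse embryonic stem cells of a Cast x 129S background in which METTL3, the catalytic subunit of the m6A writer complex, carries a degron tag (METTL3-FKBP12F36V). Of 8 libraries, 4 came from cells given dTAG-13 for 26 hours, which triggers destruction of the tagged protein, and 4 from untreated cells. Both groups contained 2 libraries of clone C3 and 2 of clone H5, so that all values rest on 2 clones. All cells carried an Xist allele under a TetOn promoter, none received doxycycline, and all were grown on mouse fibroblast feeders. The labels give total RNA as the molecule, while their extraction text describes RNA from chromatin. In the study's methods for total RNA, cells of both clones were lysed directly and total RNA was isolated.

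The values below are the authors' mean count, taken from its column name as read counts divided by size factors and averaged over all libraries of both groups. The study compared dTAG-13 with untreated cells, and that comparison is not given here, since the table holds no value per library and the columns of the authors' own comparison were not used. The values therefore describe the level of each LTR subfamily over all 8 libraries together, with no spread between replicates and no test. They are counts of reads per subfamily, summed over its genomic copies, and not levels per length or per copy, because the number and length of the copies were not analysed here. The study describes the mapping as similar to that of its chromatin RNA libraries, in which only uniquely placed reads were kept. Reads from near-identical copies of young subfamilies are lost by such a step. A read in an LTR may also come from a longer transcript that runs through it, such as an intron, and the share of such reads was not tested.

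The cell type label was checked against markers. All 10 embryonic stem cell markers had a mean count of at least 1019, led by Pou5f1 at 11934. The median over all 17597 gene rows was 170. Of 10 fibroblast feeder markers, Col1a1, Col1a2, Col3a1, Lum, Dcn and Postn lay between 0.768 and 19.8, while Fn1 (4941), Sparc (3052), Vim (2073) and Thy1 (116) were higher. Mettl3 itself had a mean count of 684, and because the degron acts on protein this value does not check the treatment.

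Together the 197 LTR subfamilies held a summed mean count of 69498 reads. This was 32.8% of the reads on ERVK rows, 4.04% of those on all transposable elements and 0.427% of all reads in the table. The reads were concentrated in few subfamilies. RLTR13G alone held 15.6% of the members' sum, 10 subfamilies held 50.2% and 25 held 66.4%. A mean count of at least 1000 was reached by 12 subfamilies, 96 lay from 100 to under 1000, and 89 lay under 100 and together held 6.21% of the sum. The median was 113, with quartiles at 52.2 and 295.

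**Figure D1:**
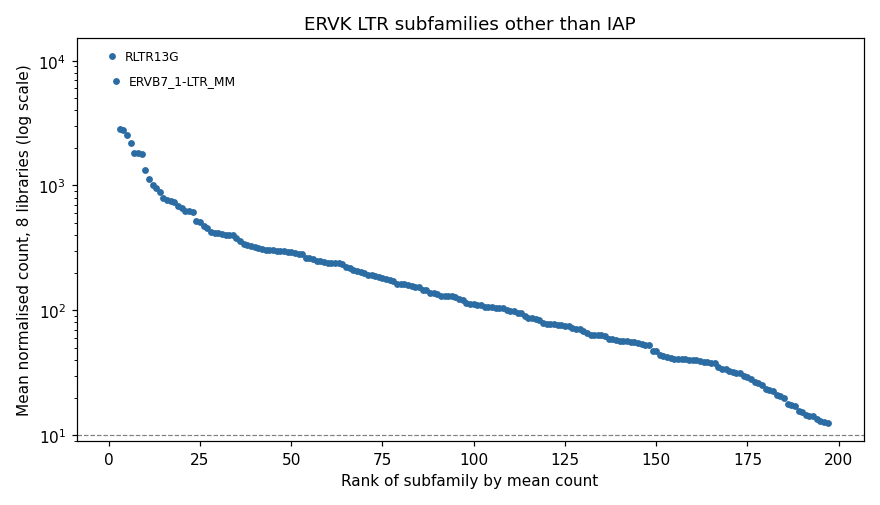
Each point is 1 of the 197 ERVK LTR subfamilies other than IAP, ordered by rank on the horizontal axis, with its mean normalised count over the 8 libraries on a log vertical axis. The dashed line marks the minimum of 10. RLTR13G (10865) and ERVB7_1-LTR_MM (6883) stand above the rest, which descend without a break of that size from RLTR17 (2826) downwards.

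RLTR13G had the highest mean count, 10865, which was 96.0 times the median member and placed it 28th among all transposable element rows and 3rd among ERVK rows. ERVB7_1-LTR_MM followed at 6883. The step from this subfamily to the next, RLTR17 at 2826, was 2.44-fold, wider than the 1.58-fold step from RLTR13G. RLTRETN_Mm, an LTR of the early transposon (ETn) family, whose copies still insert in laboratory strains, had a mean count of 2790. RMER6A (2555), RLTR17B_Mm (2184), RLTR25B (1825), RLTR9E (1816) and RMER19B (1785) came next, and BGLII (1328), RMER4B (1127) and MLTR18B_MM (1006) completed the subfamilies of at least 1000. Below these, RLTR20B1 stood at 948 and MLTR25A at 890. RMER17C (798), RLTR11A (768), RMER6C (751) and RLTR40 (742) lay close together. RLTR20A4 (687), RMER4A (655), RLTR11A2 (629), RMER6B (622) and RLTR31D_MM (615) followed, and RLTR15 (518) and RLTR25A (508) closed the leading 25. With no spread over libraries, whether neighbours in this order differ was not tested.

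The members fell into 53 groups by the leading letters and digits of their name. These are groups of names only, and whether their members are related in sequence was not examined. Of these, 25 groups had 3 or more members and covered 160 subfamilies with 81.2% of the reads. In several of them 1 subfamily held most of the group. RLTR13 was the group with the most members, 22. RLTR13G held 81.9% of the reads of the group, and the next member, RLTR13E, had a mean count of 305. The smallest, RLTR13D3A, had 14.5. RLTR13D5, known as an enhancer source in mouse trophoblast stem cells, had a mean count of 66.1, and RLTR13D6, which carries enhancer marks in embryonic stem cells, had 154. The share was larger still in ERVB7, in which ERVB7_1-LTR_MM held 94.5% of the group and the other 4 members ranged from 42.3 (ERVB7_4-LTR_MM) to 138 (ERVB7_2-LTR_MM).

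RLTR9 had 12 members. RLTR9E, whose copies bind pluripotency factors and act as enhancers in embryonic stem cells, stood at 1816 and held 67.6% of the reads of the group. RLTR9D followed at 296, RLTR9A had 130, and the lowest was RLTR9B2 at 15.7. In BGLII, the subfamily BGLII held 66.3% of 6 members, ahead of BGLII_B at 302, and in MLTR18 the subfamily MLTR18B_MM held 76.9% of 5 members. RMER19B held 63.5% of the 4 members of RMER19.

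In 8 further groups the largest member held a smaller share, from 22.2% in RLTR12 to 55.7% in RMER6. In RLTR17 most of the reads lay in a pair of its 4 members, as RLTR17 (2826) and RLTR17B_Mm (2184) were both far above RLTR17D_Mm at 145 and RLTR17C_Mm at 63.0. All 5 members of RMER6 had a mean count of at least 239, with RMER6A first, and all 5 members of RLTR11 had at least 106. The 15 members of RLTR20 ran from 25.4 (RLTR20A) to 948 (RLTR20B1), which held 27.7% of the group. The 9 members of RLTR12 ran from 23.2 to 295 (RLTR12E), with 22.2% of reads in the largest. RLTR10, with 9 members, had its highest mean count in RLTR10 (327) and its lowest in RLTR10F (12.6). In RMER17 the largest was RMER17C (798) of 8 members and in RLTR31 it was RLTR31D_MM (615) of 8.

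The smaller groups had these leading members. RMER12C had a mean count of 469, RLTR16B_MM 457, RMER20B 356, ERVB4_1C-LTR_Mm 310, RMER13A2 296, MLTR31F_MM 248 and RLTR34B_MM 156. At the low end, RLTR19 led its group at 104, RLTR26_Mus at 99.97, RMER16_Mm at 59.0 and RLTR44E at 40.5. No member of RLTR26, RMER16 or RLTR44 reached 100.

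**Figure D2:**
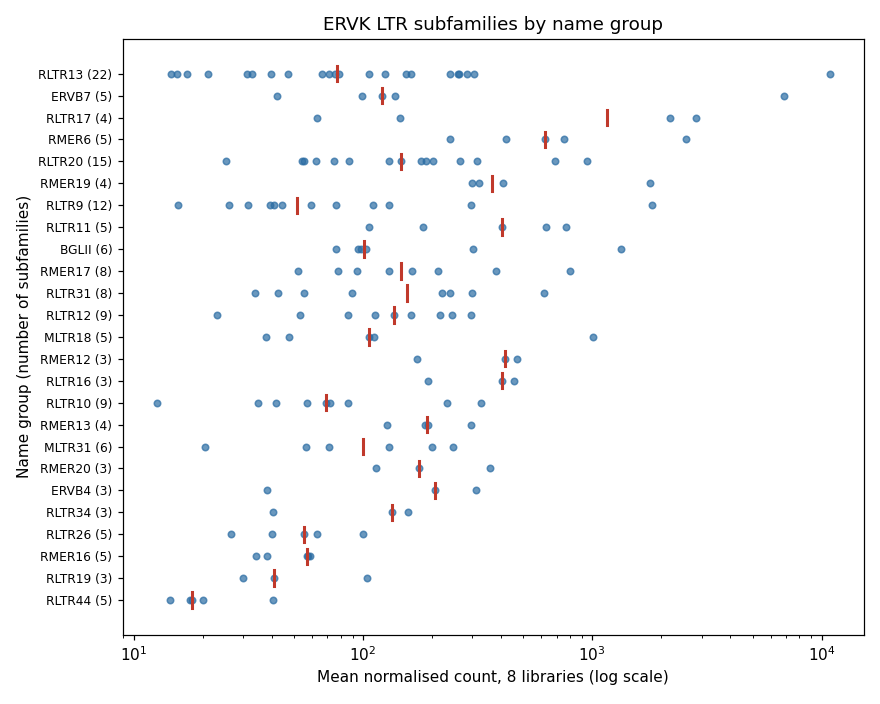
Each row is 1 of the 25 name groups with 3 or more ERVK LTR subfamilies, with the number of subfamilies in brackets. Points are the mean normalised counts of single subfamilies over the 8 libraries on a log axis, and the red mark is the median of the group. RLTR13 and ERVB7 each have 1 point far to the right of the others, RLTR13G at 10865 and ERVB7_1-LTR_MM at 6883.

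Members whose names begin with RMER, a series of names for rodent medium reiterated repeats, had a higher median than those named RLTR. The 34 RMER members had a median mean count of 226, and 76.5% of them reached 100. The 126 RLTR members, with RLTRETN_Mm counted apart, had a median of 94.9, with 49.2% reaching 100. The 17 MLTR members had a median of 112 and the 10 ERVB members of 110. The suffix _Mm or _MM, which marks a consensus built from the house mouse, was carried by 54 members with a median of 113, against 126 for the 136 members without a species suffix. These differences are descriptions, since subfamilies differ in copy number and length.

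At the minimum of 10, the members just inside were RLTR10F (12.6), RLTR46B (12.8), MLTR32C_MM (12.9), MMERVK10D3_LTR (13.6) and RLTR53B_Mm (14.1). The LTR rows just outside were RMER16B (7.97), RLTR43C (7.42), RMER16C (6.68), RLTR19A2 (6.48) and RLTR19A (5.56). RLTR3_Mm, the LTR of mouse mammary tumour virus, was also outside, at 2.86. The 20 rows under the minimum held a summed mean count of 73.0.

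Internal sequences of the same name were set beside 8 of the LTR subfamilies. The internal row had more reads in 5 of these. RMER16 had a mean count of 34.0 and RMER16-int 7362, RLTR19 had 104 and RLTR19-int 2506, and RLTR45 had 424 and RLTR45-int 5327. RLTR42 (37.6 and 212) and RLTR10 (327 and 741) leaned the same way to a smaller degree. In the other 3 the LTR row had more. RMER17C had 798 against 118 for RMER17C-int, a ratio of 6.73, RMER17A had 130 against 26.2, and RLTR18 had 159 against 141. An internal sequence is usually much longer than an LTR, and solo LTRs add LTR copies without internal ones, so that these ratios compare reads and not levels per length. Each internal row was set against 1 LTR row, and other LTR rows of the same name group were left out. The 9 members of RLTR10 together had 933, against 741 for RLTR10-int. That sum includes RLTR10C (233), which is paired below with another internal row, so it does not show more LTR than internal reads for RLTR10. The 5 members of RMER16 together had 246 and the 3 of RLTR19 had 175, less than RMER16-int and RLTR19-int.

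**Figure D3:**
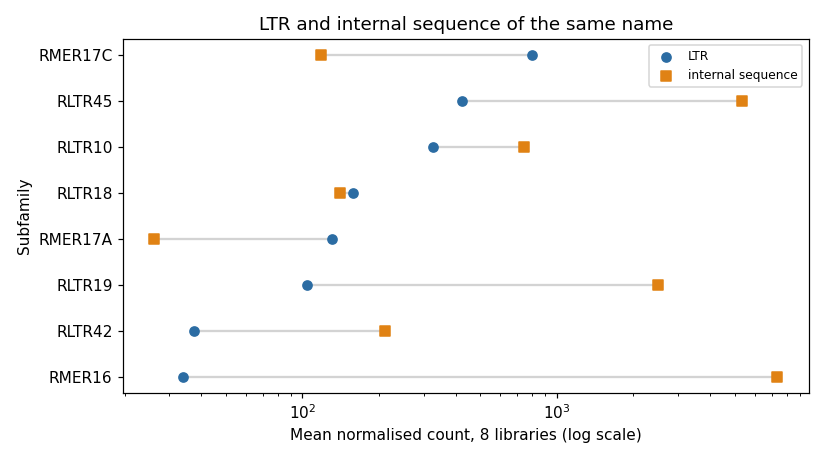
Each row is an ERVK LTR subfamily that has an internal row of the same name, with the mean normalised count of the LTR (circle) and of the internal sequence (square) over the 8 libraries on a log axis. The widest gap is that of RMER16 (34.0) and RMER16-int (7362), and in RMER17C, RLTR18 and RMER17A the circle lies to the right of the square.

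Further pairs were chosen after the values were seen. RLTRETN_Mm (2790) belongs to the ETn family, whose internal rows were MMETn-int at 70915, ETnERV-int at 27763, ETnERV2-int at 1753 and ETnERV3-int at 1055. Whether other LTR rows belong to the ETn family was not examined. RLTR10C, the LTR of MMERVK10C, had a mean count of 233, and MMERVK10C-int had 2488. The ERVB names gave 3 pairs, in each of which the internal row was higher. ERVB4_2-LTR_MM had 207 against 275, ERVB4_1B-LTR_MM 38.3 against 221 and ERVB3_1-LTR_MM 22.5 against 26.2.

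Compared with the LTR rows of other families under the same minimum, the ERVK LTRs were the most numerous. Their median of 113 lay above those of 71 ERV1 LTRs (81.4), 65 ERVL LTRs (57.2) and 15 IAP LTRs (91.7), and below that of 52 ERVL-MaLR LTRs (667). It was close to the median of 118 over all 896 transposable element rows of at least 10. The minimum kept 71 of 109 ERV1 and 65 of 95 ERVL LTR rows, against 197 of 217 here. For IAP it kept 15 of 16 LTR rows, and for ERVL-MaLR all 52. In sum the ERVK LTRs held 69498 reads, beside 60103 for ERVL-MaLR, 19605 for ERV1, 18552 for ERVL and 1690 for IAP LTRs. The share of reads lost from near-identical copies may differ between these families and was not tested. A mean count of at least 100 was reached by 54.8% of the ERVK LTRs, 76.9% of the ERVL-MaLR LTRs, 40.0% of the IAP LTRs, 38.0% of the ERV1 LTRs and 29.2% of the ERVL LTRs. The 35 ERVK internal sequences outside IAP had a higher median, 311, and a larger sum, 133252, of which MMETn-int held 53.2%.

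**Figure D4:**
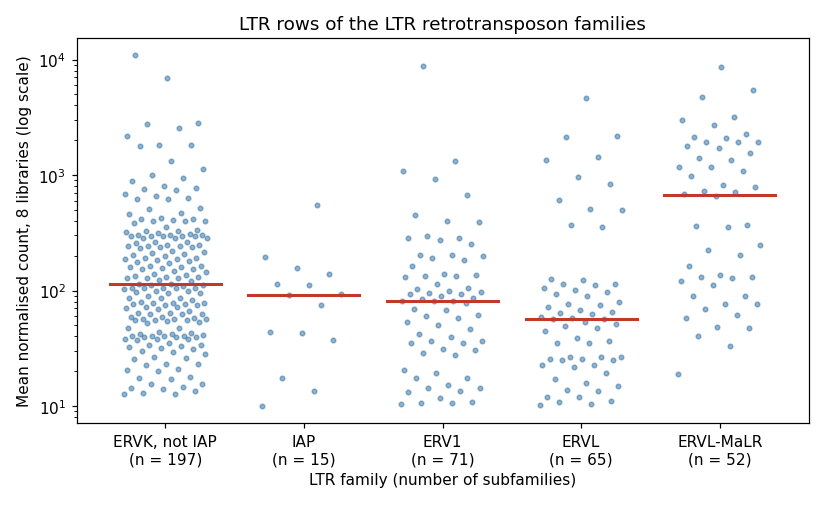
Each point is an LTR subfamily with a mean normalised count of at least 10 over the 8 libraries, on a log axis, by family, and the red line is the median of the family. The ERVK LTRs other than IAP have a median of 113, between those of IAP (91.7), ERV1 (81.4) and ERVL (57.2) and that of ERVL-MaLR (667).

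The genes that silence endogenous retroviruses were read in these cells. All 12 genes of a list of such factors had a mean count of at least 658, with Trim28, the corepressor recruited by KRAB zinc finger proteins, at 18853. The median over all 17597 gene rows was 170, and the share of genes that reached 658 was not counted. Setdb1, which writes H3K9 trimethylation at ERVK copies, had 2665, Dnmt1, the maintenance DNA methyltransferase, had 6392, and Zfp809, a zinc finger protein that targets retroviral sequence, had 658. These are levels of reads over all libraries, and how the LTR subfamilies vary with them was not tested.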

How the data were processed

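Total RNA libraries were made from untreated and dTAG-13 treated cells. Per the study's methods, reads were mapped in a similar way to those of its chromatin RNA libraries. For those libraries, the authors removed ribosomal RNA reads with bowtie2 and mapped the remaining pairs with STAR. The mm10 genome was masked at strain variants, and unique alignments were kept. For total RNA they removed duplicates with Picard and ran TEtranscripts with default parameters on genes and transposable element subfamilies. One table with 6 columns of values was deposited, without values per library. Its signal column, used here, was named baseMean by the authors. From that name it was taken as the mean over all libraries of counts divided by size factors. The other 5 columns hold the authors' own comparison of both groups (a log2 fold change, its standard error, a statistic, a p-value and an adjusted p-value) and were not used, so that no difference between groups was computed.

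Sums, medians, shares and ranks of the mean counts were computed with Python 3.11.15 and pandas 2.3.3. The number of members, their sum and median, and their shares in the 10 largest and of transposable element reads were checked on simulated data. Ranks, name groups and pairs were not. The summed mean count was 14573411 over genes and 1719306 over transposable elements. Depth per library, and counting intervals that would need it, could not be had from a mean. Members and lists were chosen with earlier results of these data known. Named were the 25 largest members, the largest of each name group with 3 or more members, 7 subfamilies with a known background, members with an internal partner and the 5 rows on each side of the minimum.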

Additional observations from a re-analysis of the deposited data

How the results depend on the processing

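The minimum mean count and the set of rows were varied. Without a minimum, the members' sum was 69571, their median 99.97, the share of the 10 largest 50.1% and the share of transposable element reads 4.05%. With a minimum of 20 these were 69319, 129, 50.3% and 4.03%. With a minimum of 100 the number of members was 108, the sum 65184, the median 263, the share of the 10 largest 53.5% and the share of transposable element reads 3.79%. With IAP LTRs included these were 71188 for the sum, 111 for the median, 49.0% and 4.14%. Without RLTR13G the sum was 58632, the median 112 and the share of the 10 largest 42.8%. Leaving the most abundant transposable element row out of the denominator gave a share of 4.81%. The number of members stayed within 1.5-fold of 197 except with the minimum of 100. No replicate could be left out, and no paired analysis was possible because the table holds no value per library. The depth of single libraries limits the precision of low subfamilies, and its size was not given in the values used here.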
